A study of Mus musculus with 11 samples.

Results

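*Gfra1*, *Gfra2*, *Gfra3* and *Ret* encode the coreceptors and the shared signaling receptor of the GDNF family, and they were taken by symbol as 4 of the 24243 genes listed in any of the 8 count tables. All 4 were present in every table. The tables hold 40359 neuronal nuclei of the mouse trigeminal ganglion, which were enriched with an antibody to the neuronal protein NeuN, with ganglia of several males and females pooled for each library. Uninjured wildtype C57BL mice older than 6 weeks gave 1 library made with the 10x platform and 4 made with Drop-seq, another droplet method. The Drop-seq libraries share a table with no label that ties a nucleus to its library, so they were treated as 1 sample. C57BL mice of the same age also gave 4 libraries at 2, 7, 21 and 75 days after infraorbital nerve transection (IOT), in which superficial branches of the nerve to the whisker pad are cut and the rest are spared. Another library came from C57BL mice 2 days after incisions through the skin of the face (facial injury). The last came from mice of an FVBN/C57BL/129 mix that scratched until lesions were visible (scratch lesions). These mice were double heterozygous for Fos-tTA and tetO-mCherry-2A-Gnaq\*, transgenes that drive a mutant G protein from the Fos promoter, and the study detected no mCherry in their somatosensory neurons. The 4 IOT libraries and the 2 mild injury libraries were all made with 10x, and each condition is 1 library, so single conditions were not compared by a test. Only the joint effect of the 4 IOT libraries was set against that of the 2 mild injury libraries. Scratch lesions also differ from all other libraries in strain and transgenes, which cannot be told apart from the injury.

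GDNF, neurturin and artemin are growth factors that sensory neurons meet mainly in their target tissues. Each binds preferentially to a coreceptor held to the membrane by a lipid anchor, GDNF to GFRα1 (*Gfra1*), neurturin to GFRα2 (*Gfra2*) and artemin to GFRα3 (*Gfra3*), and the pair then engages the receptor tyrosine kinase RET (*Ret*). In sensory ganglia, Ret and Gfra2 are classically tied to non-peptidergic nociceptors and to rapidly adapting mechanoreceptors, and Gfra3 to peptidergic nociceptors.

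In the GRCm38 (mm10) annotation of GENCODE vM21, *Gfra1* lies on the minus strand of chromosome 19 from 58235604 to 58455909. *Gfra2* lies on the plus strand of chromosome 14 from 70890120 to 70979838. *Ret* lies on the minus strand of chromosome 6 from 118151745 to 118197718. The annotation also places an antisense gene, *Gm16277*, across the 3′ end of *Gfra1*, and no source used here states whether counting used strand. Reads in introns were counted and the genes span from 30490 bases (*Gfra3*) to 220306 bases (*Gfra1*), so levels are compared between nuclei for 1 gene and not between genes. *Gfra1* is the member whose level differed most with injury state, and its promoter as given by RefSeq (GRCm38.p6, chr19:58455349-58455648, minus strand, 250 bases before to 50 after the start) is shown for the elements that could be looked for in it. The RefSeq start differs from the GENCODE one, and the whole window lies inside the GENCODE gene, whose 5′ end is at 58455909. Bases upstream of that end were not searched. Capitals mark the only match to CCAAT, here on the opposite strand.

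Gfra1 promoter: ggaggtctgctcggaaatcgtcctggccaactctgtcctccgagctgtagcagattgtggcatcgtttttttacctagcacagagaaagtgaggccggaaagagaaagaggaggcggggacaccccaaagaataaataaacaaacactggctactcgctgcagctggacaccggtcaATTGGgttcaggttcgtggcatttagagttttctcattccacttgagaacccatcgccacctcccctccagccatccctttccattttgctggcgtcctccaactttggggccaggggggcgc

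CCAAT, the box bound by the factor NF-Y, was found on either strand in 37.4% of the 32851 promoters of the same length. TGACTCA, the site of AP-1 dimers, which can include ATF3, had no match in this window and is in 5.20% of promoters. TGACGTCA, the cyclic AMP response element, had none either and is in 1.79%. TGTGGT, a core bound by Runx factors, had none and is in 16.8%. These matches describe letters in 1 window and not binding.

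Injury state was read in each nucleus from *Atf3*, a transcription factor switched on in axotomized neurons, and *Sema6a*, a semaphorin that rises with it. Nuclei with 2 or more unique molecular identifiers (UMIs, each standing for 1 captured RNA molecule) of the 2 genes together are called marker-positive, and those with 0 marker-negative. Marker-positive nuclei made up 17.9% of the day 2 library (826 nuclei), 10.8% at day 7 (434), 9.05% at day 21 (366) and 8.31% at day 75 (302). The shares were 2.32% after facial injury (201) and 4.10% with scratch lesions (321). They were 2.56% in the 10x control (112) and 1.32% in the Drop-seq control (42), so that facial injury lay within the 95% Clopper-Pearson interval of the 10x control (2.12 to 3.08%), an interval that covers counting error only. The positives of the control rested on *Sema6a* almost alone. In the 10x control 12.3% of nuclei had a *Sema6a* UMI and 0.893% an *Atf3* UMI, and 35 of its 112 marker-positive nuclei passed the gate for the *Cadps2* class described below. Other genes known to rise with axotomy separated the injury libraries from that control. *Sox11*, a transcription factor of axon regrowth, was at 188 to 521 counts per 1000000 UMIs (CPM) in the marker-positive nuclei of the 6 injury libraries and at 46.2 CPM in those of the 10x control. Marker-positive nuclei were also deeper, with a median of 4188 UMIs against 3048.5 at day 2 and 4724 against 3135.5 in the 10x control.

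Median depth ran from 1747 UMIs per nucleus (IOT day 7) to 4178.5 (IOT day 75) across the 8 tables, which together hold 132982556 UMIs. Each pair of 10x libraries shared 16 to 92 barcodes, which were kept. Transcripts typical of other classes were looked at as possible free RNA, and their levels differed between libraries. *Calca*, the gene of the peptidergic transmitter CGRP, was at 64.2 to 230.3 CPM in *Cadps2*-class nuclei of the 10x control and IOT libraries. It was at 349.6 and 483 CPM in those of the scratch and facial injury libraries. *Trpm8*, the cold channel gene, was at 6.05 to 22.4 CPM in *Tac1*-class nuclei of the 10x control and IOT libraries, highest at day 75. With scratch lesions and facial injury it was at 13.5 and 6.89 CPM. Whether these transcripts were free RNA was not tested. Satellite glia markers (6 genes, none at 0 in the injury libraries) summed to 339 to 963 CPM in marker-negative and 443 to 1122 CPM in marker-positive nuclei, higher in the marker-positive nuclei of all 6 injury libraries. Schwann cell markers summed to 471 to 1290 and 464 to 1250 CPM. Whether glial RNA had a part in the results below was not tested.

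*Gfra1* was higher in marker-positive than in marker-negative nuclei of every injury library. After IOT its level rose from 143 to 539 CPM at day 2, from 142 to 758 CPM at day 7, from 105 to 375 CPM at day 21 and from 160 to 337 CPM at day 75. With facial injury it stood at 136 and 318 CPM, and with scratch lesions at 164 and 296 CPM. The exact 95% Poisson intervals of marker-negative and marker-positive nuclei lay closest with scratch lesions, at 158 to 169.8 against 267 to 328 CPM. They cover counting error only, and the share of all genes with intervals this far apart was not computed. The 10x control did not share the pattern, with 118 CPM in marker-negative and 96.8 CPM (74.7 to 123) in marker-positive nuclei. In the Drop-seq control the levels were 114 and 198 CPM (140 to 272), from 38 *Gfra1* UMIs.

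A fit of edgeR's quasi-likelihood test to the summed counts, with library as a block and Benjamini-Hochberg adjustment over all 15866 genes, called 16.3% of genes in the IOT libraries. Here *Gfra1* was 1.86 ± 0.16 higher on the log2 scale (± SE, 4 libraries, adjusted p = 2.5e-06), in 4 of 4 libraries. The study had listed *Gfra1* among genes raised in injured neurons of these samples, so this is not independent evidence. In the mild injuries, where the same test called 2.80% of genes, *Gfra1* was 0.99 ± 0.24 higher (2 libraries, adjusted p = 0.036), in both libraries. That call was lost when either mild library was left out, with adjusted p = 0.48 without facial injury and 0.40 without scratch lesions, and without IOT day 21 (0.057), and also with a gate of 1 or more *Sema6a* UMIs (0.42). The IOT effect exceeded the mild one by 0.87 ± 0.28, which did not pass (adjusted p = 0.73, with 0.0378% of genes called). It passed with gates that rest on *Atf3* (0.93, adjusted p = 0.023, for 1 or more *Atf3* UMIs), and without IOT day 75 (1.09, adjusted p = 0.0081).

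In all 6 injury libraries the level of *Gfra1* was highest at 3 or more marker UMIs. At 0, 1, 2 and 3 or more UMIs it was 142, 252, 528 and 861 CPM at IOT day 7, and 143, 146, 215 and 641 CPM at day 2. At day 75 it was 160, 187, 184 and 476 CPM. The 10x control stayed level at 118, 118, 98.0 and 94.7 CPM. The uninjured Drop-seq control climbed, at 114, 134, 161 and 279 CPM, the last from 17 *Gfra1* UMIs in 16 nuclei. The order of the IOT days depended on the gate. Marker-positive nuclei held 3.77 times the *Gfra1* of marker-negative nuclei at day 2, 5.34 at day 7, 3.58 at day 21 and 2.11 at day 75. With a gate of 2 or more *Atf3* UMIs (38 to 229 nuclei) the same ratios were 4.66, 5.86, 5.28 and 4.74, so day 75 was lowest under the first gate and day 2 under the second. The mild injuries were at 2.34 (facial injury) and 1.81 (scratch lesions) under the first gate and at 3.69 and 2.66 under the second, where both lay below all 4 IOT libraries. With 1 or more *Atf3* UMIs the 10x control had 112 CPM *Gfra1* in 39 nuclei against 118 CPM in nuclei without *Atf3*, but the Drop-seq control had 304 CPM in 46 nuclei against 113 CPM, so the 2 controls did not show the same pattern.

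**Figure D1:**
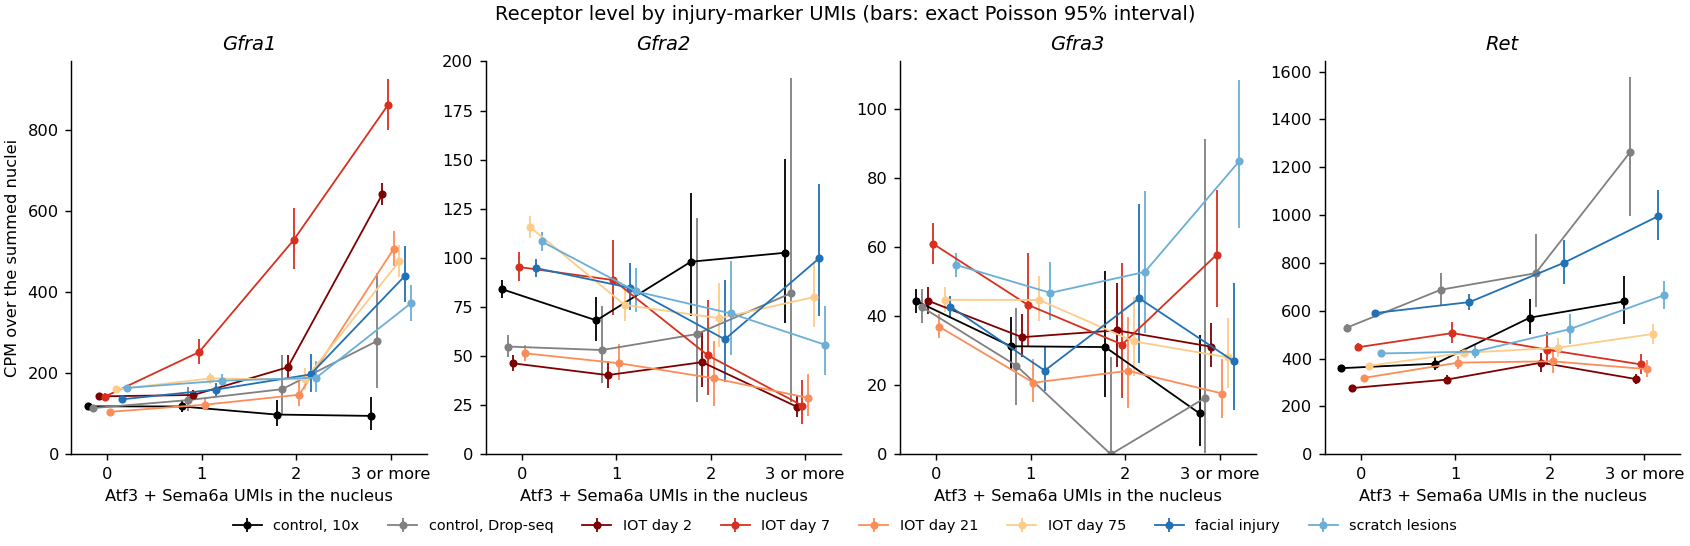
CPM of each receptor gene (vertical axis) in nuclei grouped by their summed *Atf3* and *Sema6a* UMIs (horizontal axis), 1 line per table, with exact Poisson 95% intervals. *Gfra1* is highest at 3 or more UMIs in the 6 injury libraries, up to 861 CPM at IOT day 7. It stays near 100 CPM in the 10x control but climbs to 279 CPM in the Drop-seq control. *Ret* also climbs in the 10x control.

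The share of nuclei with *Gfra1* was also compared at equal depth. Nuclei were thinned to 1000 UMIs, leaving out 523 shallower ones, so that 3137 of 3178 nuclei were kept in the Drop-seq control, 4001 of 4033 at IOT day 7, 8294 of 8660 with facial injury, 7745 of 7829 with scratch lesions and all in the other tables. At this depth *Gfra1* was detected in 37.3% of marker-positive and 11.1% of marker-negative nuclei at IOT day 2. The shares were 41.9 and 10.9% at day 7, 29.2 and 7.41% at day 21, and 23.5 and 13.1% at day 75. With facial injury they were 20.0 and 10.2%, and with scratch lesions 17.8 and 12.2%. The 10x control had 7.14% (3.13 to 13.6%) and 8.86%. Unthinned, the shares ran from 42.1 to 67.9% in marker-positive and from 20.2 to 40.0% in marker-negative nuclei of the 6 injury libraries, and were 27.7 and 27.3% in the 10x control. For scale, the *Trpm8* class, which has the lowest *Gfra1*, had 3.43% of its nuclei with a UMI at this depth.

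*Gfra2* went the other way. Marker-positive nuclei had 29.7 CPM against 46.3 in marker-negative nuclei at IOT day 2, 32.7 against 95.4 at day 7, 32.4 against 51.5 at day 21 and 74.9 against 116 at day 75. With facial injury the levels were 79.1 and 94.8 CPM, and with scratch lesions 62.4 and 108.4 CPM. With this gate it was lower in all 6 injury libraries, and by most at day 7. The ratio of the levels turned above 1 with facial injury at 3 or more marker UMIs (1.05) and at day 75 when nuclei were thinned before gating (1.08, from 4 UMIs). In the controls it was 99.8 (77.3 to 127) against 84.1 CPM in 10x and 67.8 (36.1 to 116) against 54.9 CPM in Drop-seq, but this direction depended on the gate. The 10x ratio was 0.885 with 1 or more *Sema6a* UMIs and 0.900 with 1 or more UMIs of either gene or 2 or more *Atf3* UMIs, the last from 2 *Gfra2* UMIs. The Drop-seq ratio was 0.740 with 1 or more *Atf3* UMIs, from 7 *Gfra2* UMIs, and no *Gfra2* UMI was left in marker-positive nuclei with 2 or more *Atf3* UMIs or with thinning before gating. After IOT *Gfra2* fell by 0.77 ± 0.13 on the log2 scale (edgeR, adjusted p = 0.00059). In the mild injuries the difference was -0.60 ± 0.19 and did not pass (adjusted p = 0.12). It passed with gates on *Atf3*, at -0.54 (adjusted p = 0.038) for 1 or more and -1.19 (adjusted p = 0.0016) for 2 or more UMIs, and also without IOT day 7 (-0.61, adjusted p = 0.024). The marker-negative level itself ranged from 46.3 to 116 CPM over the injury libraries, lowest at IOT days 2 and 21.

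*Gfra3*, on the minus strand of chromosome 18 from 34689898 to 34720387 in the same annotation, moved little and less steadily. Marker-positive and marker-negative nuclei had 32.3 and 44.6 CPM at IOT day 2, 49.9 and 61.0 at day 7, 20.0 and 37.0 at day 21 and 30.3 and 44.8 at day 75. With facial injury they had 36.2 and 42.8 CPM, and with scratch lesions 71.7 and 54.9 CPM, the only injury library in which it was higher. After IOT *Gfra3* fell by 0.48 ± 0.13 (edgeR, adjusted p = 0.019). This call was lost with DESeq2 (adjusted p = 0.056), with gates on *Atf3* (0.42 and 0.070), and without IOT day 2 (0.069) or day 21 (0.10). It held in 5 of 13 alternatives other than leaving out a library, and the sign turned when nuclei were thinned to 1000 UMIs before gating (0.10, adjusted p = 0.89). The 10x control had a ratio of the same kind, with 23.8 (13.6 to 38.7) against 44.4 CPM. In the mild injuries the difference was 0.12 ± 0.19 (adjusted p = 0.85).

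*Ret* was not called after IOT. Its level went from 277 to 331 CPM at day 2, from 448 to 395 at day 7, from 319 to 368 at day 21 and from 371 to 476 at day 75. The fit gave 0.21 ± 0.08 higher (adjusted p = 0.11), and 0.29 (adjusted p = 0.025) without IOT day 7, the only library in which it was lower. In the mild injuries *Ret* rose by 0.52 ± 0.12 (edgeR, adjusted p = 0.029), from 591 to 898 CPM with facial injury and from 422 to 607 CPM with scratch lesions. The controls showed the same direction without injury, from 360 to 597 CPM in 10x and from 529 to 918 CPM in Drop-seq. The call was lost without either mild library (adjusted p = 0.35 without facial injury and 0.47 without scratch lesions), and with gates of 1 or more *Atf3* (0.052) or *Sema6a* (0.24) UMIs. Among *Cadps2*-class nuclei of the 10x control, *Ret* was at 757 CPM (649 to 879) in the 35 marker-positive and 285 CPM (259 to 313) in the 376 marker-negative nuclei. The part of this uninjured difference in the mild injury result was not tested.

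The make-up of the coreceptor RNA shifted toward *Gfra1* in all 6 injury libraries. *Gfra1* made up 89.7% of the UMIs of the 3 coreceptors in marker-positive nuclei and 61.1% in marker-negative nuclei at IOT day 2. It made up 90.2 and 47.6% at day 7, 87.7 and 54.2% at day 21, and 76.2 and 49.95% at day 75. With facial injury the shares were 73.4 and 49.6%, and with scratch lesions 68.8 and 50.1%. The mean difference was 28.9 ± 8.3 percentage points (SD, n = 6 libraries), higher in 6 of 6. The *Gfra2* share was 19.4 ± 4.6 points lower and the *Gfra3* share 9.54 ± 5.76 points lower, each in 6 of 6, although the *Gfra3* difference was only -0.12 points with scratch lesions. All 3 reached p = 0.031 in a two-sided exact sign-flip permutation test, the smallest that 6 libraries can give. The 3 shares sum to 100% and are not independent, so more *Gfra1* alone lowers the other shares. With scratch lesions the *Gfra3* share counts as lower although its level was 71.7 CPM in marker-positive and 54.9 CPM in marker-negative nuclei. The study had listed *Gfra1* as raised in injured neurons of these samples, so the shift toward it is not independent evidence either. In the 10x control *Gfra1* had 43.9% (35.8 to 52.3%) of 148 UMIs in marker-positive and 47.9% of 3623 in marker-negative nuclei, and *Gfra2* had 45.3 and 34.1%. In the Drop-seq control *Gfra1* had 73.1% (59.0 to 84.4%) of 52 UMIs against 53.9%.

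**Figure D2:**
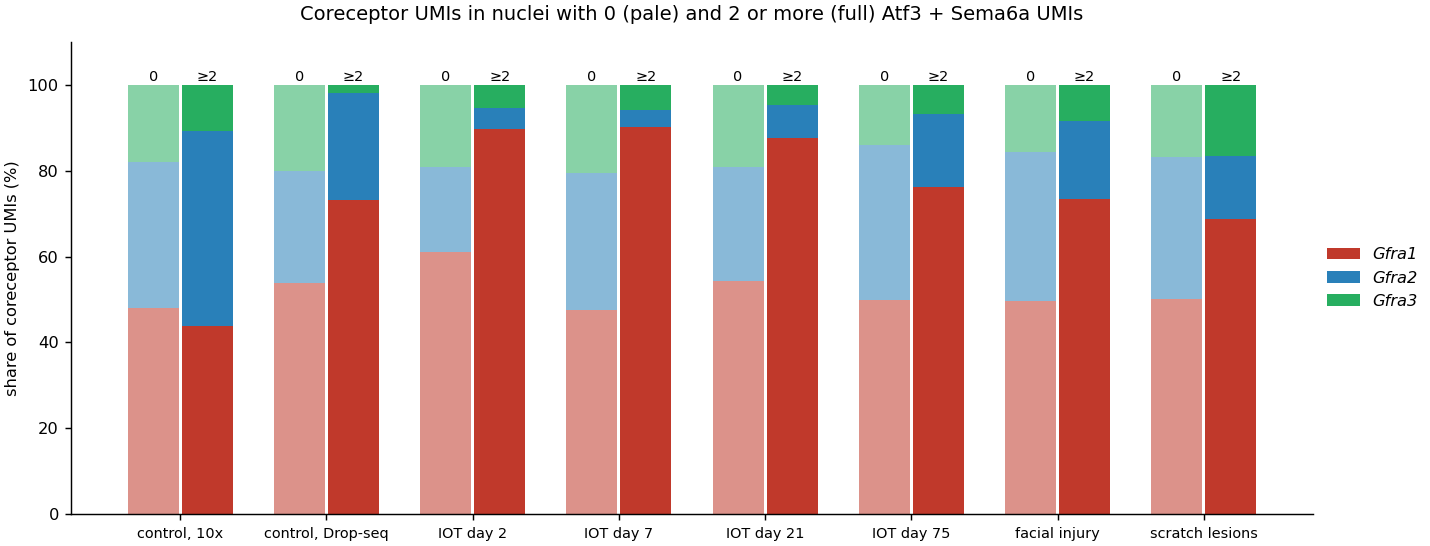
Share of the UMIs of *Gfra1*, *Gfra2* and *Gfra3* (percent of the 3 together) in nuclei with 0 (pale bars) and 2 or more (full bars) *Atf3* and *Sema6a* UMIs, for each of the 8 tables. *Gfra1* takes the larger share in marker-positive nuclei of all 6 injury libraries, up to 90.2% at IOT day 7, and 43.9% in the 10x control.

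How many nuclei held UMIs of more than 1 coreceptor depended on depth. At 1000 UMIs per nucleus, *Gfra1* and *Gfra3* were found together in 0 to 1.88% of the marker-positive nuclei of the injury libraries. *Gfra1* and *Gfra2* were found together in 0 to 2.00%, and *Gfra2* and *Gfra3* in 0 to 0.50%. Unthinned, *Gfra1* was found with *Gfra2* in 2.53% (IOT day 7) to 22.8% (day 75) and with *Gfra3* in 4.37 to 13.2% of the same nuclei. The thinned shares lay on both sides of what the 2 genes' separate shares multiply to, as for *Gfra1* with *Gfra2* at day 2 (0.484% against 1.26%) and *Gfra1* with *Gfra3* at day 2 (1.57% against 1.31%). These differences were not tested. Among marker-positive nuclei with a *Ret* UMI, 34.1% also had *Gfra1* at IOT day 2, 38.1% at day 7, 31.0% at day 21 and 23.4% at day 75. In marker-negative nuclei with *Ret* these shares were 8.67 to 12.2%. Over all nuclei of these libraries, with or without *Ret*, the *Gfra1* shares were close to these. They were 37.3, 41.9, 29.2 and 23.5% in marker-positive and 7.41 to 13.1% in marker-negative nuclei. In the same 4 libraries *Gfra2* was found in 4.32 to 9.09% of marker-positive *Ret* nuclei and 5.67 to 12.9% of marker-negative ones. Over all nuclei the *Gfra2* shares were 2.08 to 5.96% and 4.19 to 11.2%.

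Nuclei were assigned to 14 classes by marker genes other than the receptors, and 13340 nuclei of the 7 10x libraries fell into a single class. Classes are named here by their first gene and are described in marker-negative nuclei. In 8 of them every 10x library had at least 10 nuclei. For each receptor these 8 were ordered by mean log2 CPM over the 7 libraries, and neighbors in that order were tested in the same libraries. The pairs and their direction thus come from the values tested, and the p-values are not those of pairs set beforehand. *Trpm8*, the cold channel, was at 982 CPM in its class and at most 23.1 CPM in any other. It is a gate gene of that class, so this difference follows from the gate and is no check of it. *Calca*, which is in no class gate, was highest in the *Tac1* (2669 CPM) and *Htr3a* (2440 CPM) classes.

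*Gfra1* was highest in the *Mrgpra3* class, itch-sensing C fibers, at 412 ± 88.4 CPM (SD, n = 7 libraries; 334 to 540 CPM). The next classes were *Cadps2* (its gate includes *Ntrk2*, the BDNF receptor TrkB) at 145 ± 30.8 CPM and *Htr3a* at 145 ± 40.3 CPM. It was lowest in the *Trpm8* class, at 41.8 ± 14.6 CPM. *Gfra1* in *Mrgpra3* exceeded *Cadps2* by 1.51 ± 0.27 on the log2 scale in 7 of 7 libraries (exact sign-flip permutation p = 0.0156, the smallest for 7 libraries, adjusted p = 0.0625). Likewise *Mrgprd* exceeded *Trpm8* by 0.76 ± 0.56, in 7 of 7. The classes between them did not differ from their neighbors beyond the spread.

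*Gfra2* was highest in the *Mrgprd* class, the non-peptidergic nociceptors, at 369 ± 77.3 CPM (266 to 472), and in the *Cdh9* class, whose gate includes the C low-threshold mechanoreceptor gene *Fam19a4*, at 302 ± 80.0 CPM (177 to 432). These neighbors differed by 0.32 ± 0.27 in 6 of 7 libraries (exact p = 0.047, adjusted p = 0.16). Both stood far above the rest. *Cdh9* exceeded the *Tac1* class, next in order at 58.4 ± 26.2 CPM, by 2.44 ± 0.61 in 7 of 7 libraries (exact p = 0.0156, adjusted p = 0.0625). The lowest was the *Htr3a* class, at 18.9 ± 20.2 CPM, which was below *Trpm8* in 7 of 7.

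*Gfra3* was highest in the *Tac1* class, peptidergic nociceptors, at 278 ± 58.8 CPM (209.6 to 377). It exceeded the *Il31ra* class, itch-sensing neurons with *Nppb*, which had 113 ± 59.8 CPM, by 1.35 ± 0.59 in 7 of 7 libraries. *Il31ra* in turn exceeded *Trpm8* (39.8 ± 12.4 CPM) by 1.45 ± 0.96 in 7 of 7 (exact p = 0.0156 for each, adjusted p = 0.0625). The lowest level was 11.2 ± 5.0 CPM in *Cadps2*, where it ran from 3.93 CPM in the 10x control to 18.1 CPM with facial injury. The facial injury library also had the most *Calca* in that class, but other libraries did not keep that order. *Gfra3* was at 11.4 CPM with 349.6 CPM *Calca* in the scratch library, and at 11.9 CPM with 64.2 CPM at IOT day 7. Whether free RNA had a part in these levels was not tested.

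*Ret* was spread more evenly. It was highest in *Mrgprd* (612 ± 110 CPM), *Tac1* (574 ± 141 CPM) and *Cdh9* (517 ± 141 CPM), which did not differ beyond their spread (adjusted p = 0.29 to 0.39). It was lowest in *Trpm8* at 169 ± 69.6 CPM, below *Cadps2* (296 ± 87.9 CPM) by 0.84 ± 0.37 in 7 of 7 libraries (exact p = 0.0156, adjusted p = 0.0625). In all, 28 neighboring pairs were compared over the 4 genes. In 7 pairs every library agreed in direction, and with an adjusted p of 0.0625 none passed 0.05. The other 21 had adjusted p = 0.16 to 0.97. In the Drop-seq control the 7 had the same direction, some on almost no counts, as *Gfra2* in *Trpm8* and *Htr3a* (2 and 1 UMIs) and *Gfra3* in *Il31ra* and *Trpm8* (2 and 0 UMIs).

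**Figure D3:**
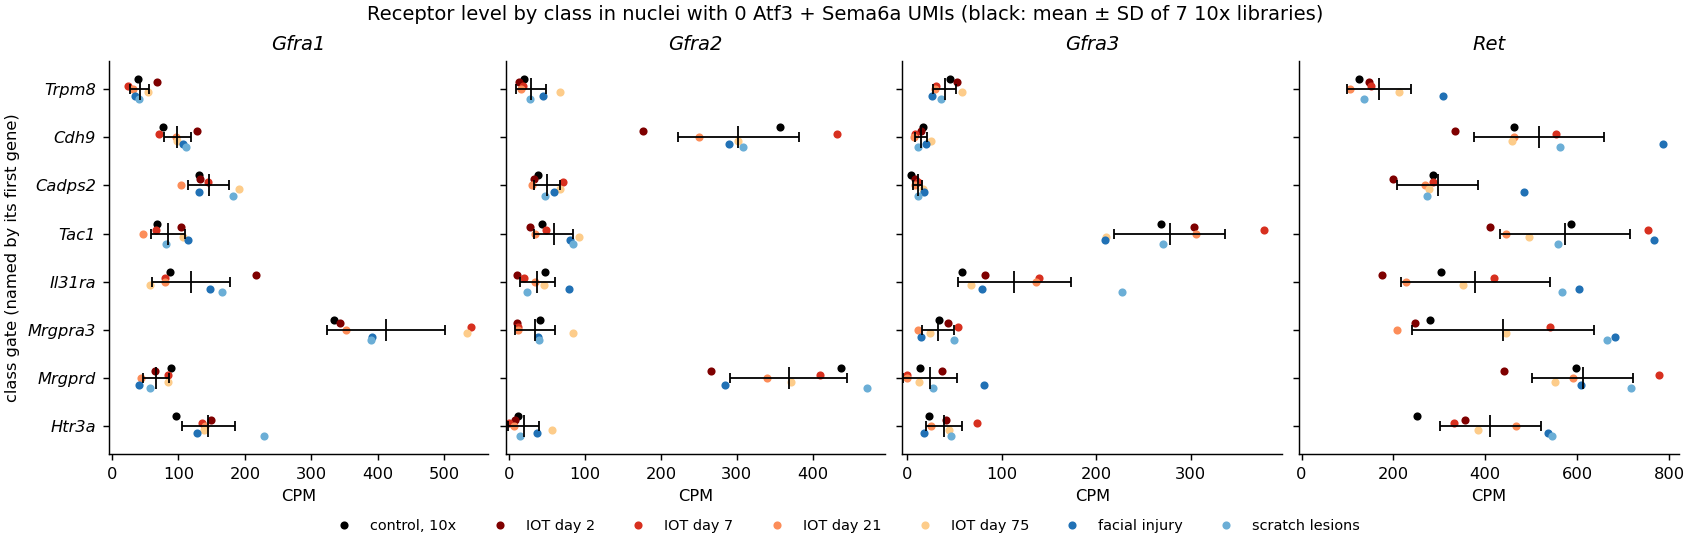
CPM of each receptor gene (horizontal axis) in marker-negative nuclei of the 8 classes with at least 10 nuclei in every 10x library (vertical axis), with 1 point per library and the mean ± SD of the 7 in black. *Gfra1* peaks in *Mrgpra3*, *Gfra2* in *Mrgprd* and *Cdh9*, and *Gfra3* in *Tac1*, while *Ret* is high in several classes.

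The 6 remaining classes had too few nuclei for this and were summed over the 10x libraries. The *Calb2* class (120 nuclei, rich in the neurofilament gene *Nefh*) had the highest *Ret* of any class, 1040 CPM (exact Poisson interval 954 to 1132), and 164 CPM *Gfra2*. The *Fras1* class (132 nuclei) had 698 CPM *Ret* and 369 CPM *Gfra1*. *Ret* was lowest in the *Itga2* (86.0 CPM), *Bmpr1b* (112 CPM) and *Ano1* (167 CPM) classes, and *Gfra3* was at 3.03 to 10.6 CPM in all 6.

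Some marker-positive nuclei still passed a class gate, and within 4 of these classes the coreceptors were compared in the summed IOT libraries, with intervals for counting error only. In the *Tac1* class *Gfra1* was at 585 CPM (510 to 667) in 63 marker-positive nuclei and 81.2 CPM (71.2 to 92.3) in 922 marker-negative nuclei. *Gfra3*, the usual coreceptor of this class, was at 81.6 CPM (55.5 to 116) and 291 CPM (271 to 311). Of the 63 nuclei, 41 came from day 2, where *Gfra1* was at 664 and 104 CPM and *Gfra3* at 69.5 and 304 CPM. At day 21 (13 nuclei) *Gfra1* was at 409 and 46.0 CPM and *Gfra3* at 86.7 and 305 CPM, and days 7 and 75 had 4 and 5 nuclei. *Calca* was also lower in the marker-positive nuclei of the class, at 524 against 1866 CPM.

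The *Cdh9* class showed the matching pattern for *Gfra2*, its usual coreceptor. *Gfra2* was at 129 CPM (84.3 to 189) in 36 marker-positive nuclei and 269 CPM (250 to 290) in 738 marker-negative nuclei, and *Gfra1* at 362 CPM (284 to 456) and 103 CPM (90.9 to 116). Over the 10x libraries *Gfra2* in marker-negative nuclei of this class ran from 177 to 432 CPM. The part of a different mix of libraries in these sums was not tested. In the *Cadps2* class, *Gfra1* was at 356 CPM (328 to 386) in 291 and 147 CPM (137 to 159) in 1098 nuclei, and *Gfra2* hardly differed, at 59.1 and 48.2 CPM. In the *Trpm8* class *Gfra1* was at 188 CPM (147 to 238) in 82 and 46.3 CPM (38.2 to 55.5) in 825 nuclei. The 35 marker-positive *Cadps2* nuclei of the 10x control had 123 CPM *Gfra1* (81.4 to 177), against 132 CPM in the rest. In the mild injuries the *Tac1* class had 199.5 CPM *Gfra1* (130.3 to 292) in 28 marker-positive and 98.7 CPM in 1336 marker-negative nuclei, and 107 and 239 CPM *Gfra3*. Whether the nuclei that still pass a gate after injury represent their class was not tested.

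**Figure D4:**
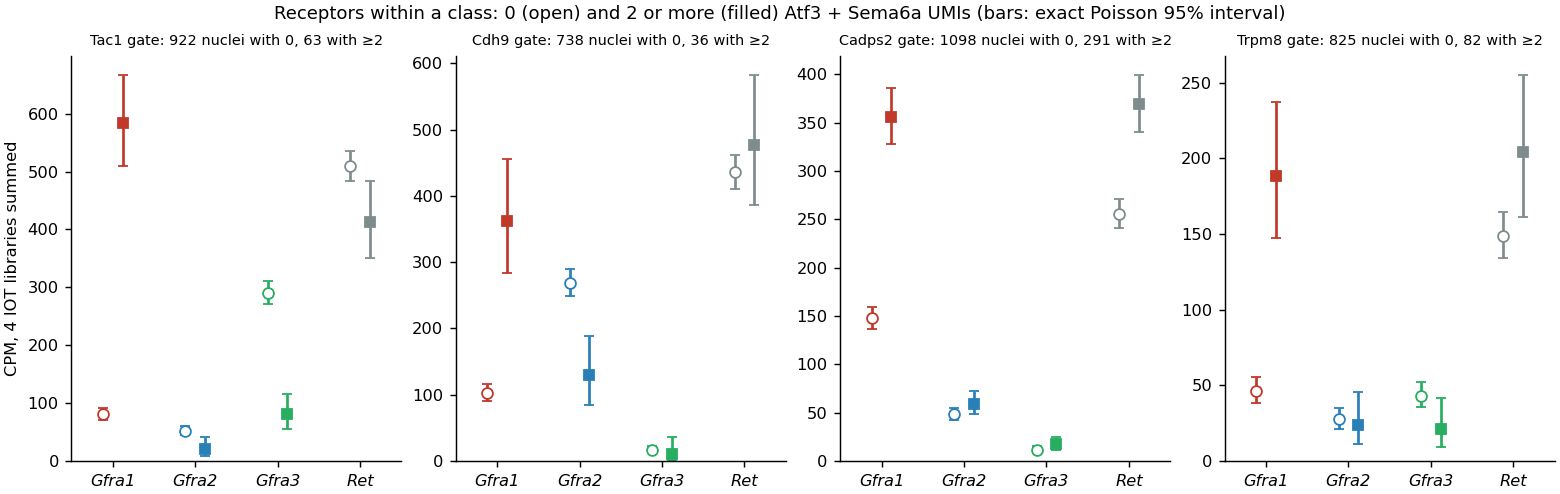
CPM of the 4 receptor genes in nuclei of the *Tac1*, *Cdh9*, *Cadps2* and *Trpm8* classes of the 4 IOT libraries, with 0 (open) and 2 or more (filled) *Atf3* and *Sema6a* UMIs and exact Poisson 95% intervals. *Gfra1* is higher in marker-positive nuclei of all 4 classes, up to 585 CPM in *Tac1*, while *Gfra3* is lower in *Tac1* and *Gfra2* in *Cdh9*.

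Most nuclei of every table could not be placed in a single class, with or without injury. Those placed made up 24.6% (IOT day 7) to 44.0% (day 75) of a table, and 43.3% in the 10x control. Nuclei were therefore also split by genes that remain after injury, 5 marking large-diameter and 3 small-diameter neurons. Marker-positive nuclei were mostly large-like, 575 of 826 at IOT day 2 and 240 of 302 at day 75. The same held without injury, with 94 of 112 in the 10x control and 37 of 42 in the Drop-seq control. Of marker-negative nuclei, 1514 of 3034 were large-like at day 2 and 1901 of 3794 in the 10x control. *Gfra1* was higher in marker-positive nuclei of both kinds. In large-like nuclei it went from 177 to 649 CPM at day 2, 184 to 881 at day 7, 141 to 416 at day 21 and 209 to 371 at day 75. In small-like nuclei it went from 103 to 274, 93.5 to 387, 62.0 to 173 and 110 to 191 CPM. In a fit of 16 sums (4 IOT libraries, library as a block, 14405 genes), *Gfra1* rose by 1.67 ± 0.18 in large-like (edgeR, adjusted p = 9.8e-07, with 14.5% of genes called) and 1.42 ± 0.21 in small-like nuclei (adjusted p = 9.96e-05, with 8.07% called). The interaction was 0.25 ± 0.27 and did not pass (adjusted p = 0.86, with 0.493% of genes called). Large-like nuclei held more *Gfra1* in both states, by 0.998 ± 0.18 in marker-negative (adjusted p = 0.00010, with 35.0% of genes called) and 1.25 ± 0.20 in marker-positive nuclei (adjusted p = 0.00016, with 11.1% called). The study had also named *Gfra1* for this last contrast in these samples, so it is not an independent finding either.

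*Gfra2* fell by 1.15 ± 0.20 in small-like nuclei (adjusted p = 0.00070), in 4 of 4 libraries, for example from 122 to 53.4 CPM at day 7. The controls had the same direction without injury, on few counts. Small-like *Gfra2* was at 109 CPM in marker-negative and 69.8 CPM in marker-positive nuclei of the 10x control, the latter from 8 UMIs in 18 nuclei. In the Drop-seq control it was at 93.9 CPM and 0, the latter in 5 nuclei. In large-like nuclei the difference was -0.24 ± 0.16 (adjusted p = 0.36). The interaction of 0.91 ± 0.26 did not pass (adjusted p = 0.16), but passed with all 6 injury libraries (0.89, adjusted p = 0.031) and when *Piezo2* was left out of the size genes (1.17, adjusted p = 0.037). *Gfra3* was a gene of small-like nuclei, at 2.81 ± 0.26 lower in large-like marker-negative nuclei (adjusted p = 1.1e-08), and with size held apart its injury-state effect passed in neither kind, at -0.07 ± 0.30 in small-like (adjusted p = 0.95) and 0.51 ± 0.37 in large-like nuclei (adjusted p = 0.41). *Ret* did not pass in either kind, at 0.25 ± 0.12 in large-like and -0.26 ± 0.13 in small-like nuclei (adjusted p = 0.17 and 0.27).

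**Figure D5:**
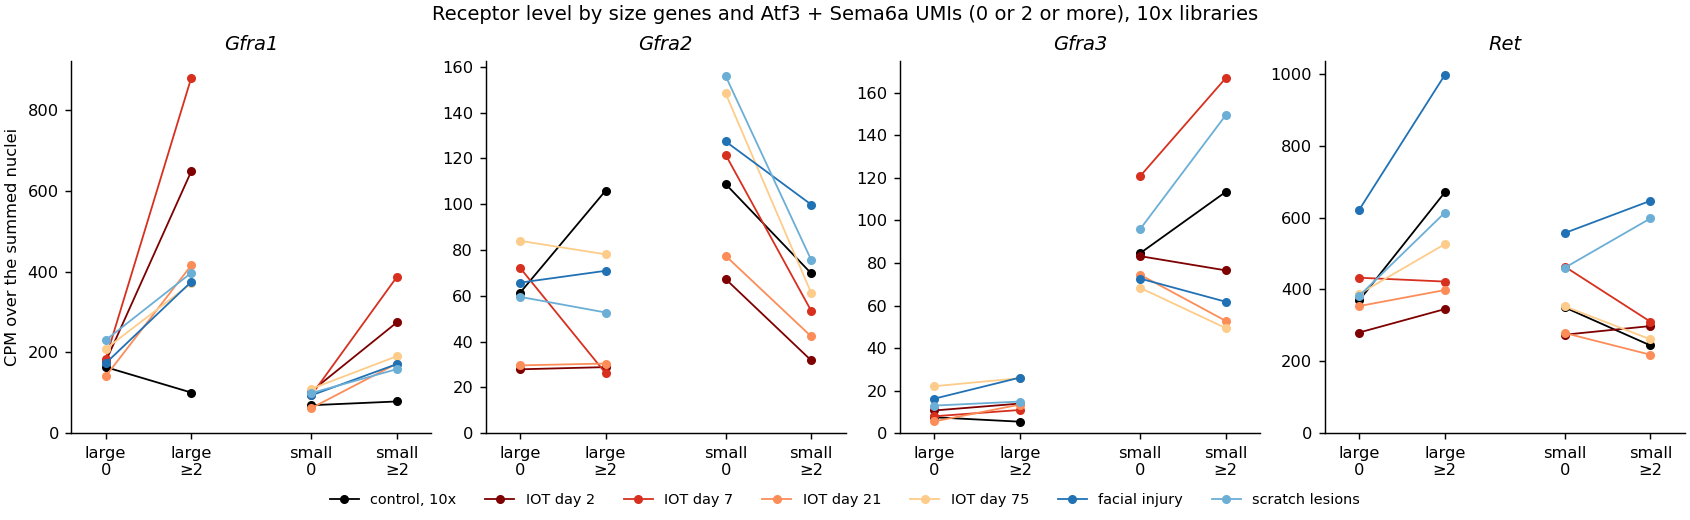
CPM of each receptor gene in large-like and small-like nuclei with 0 and with 2 or more *Atf3* and *Sema6a* UMIs (horizontal axis), 1 line per 10x library. *Gfra1* is higher in marker-positive nuclei of both kinds in the 6 injury libraries, and *Gfra3* lies mainly in small-like nuclei. Among small-like nuclei *Gfra2* is lower in marker-positive than in marker-negative ones, in these libraries and in the 10x control.

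Over all nuclei of a library, where injured and spared neurons are mixed, *Gfra1* was at 117 CPM in the 10x control, 118 CPM in the Drop-seq control, 230, 236, 136 and 186 CPM at IOT days 2, 7, 21 and 75, 144 CPM with facial injury and 174 CPM with scratch lesions. *Gfra2* was at 82.7 and 55.1 CPM in the controls and 41.6 to 103 CPM in the injury libraries. *Gfra3* stayed between 32.9 and 57.6 CPM in all 8 tables. *Ret* ran from 295 CPM (IOT day 2) to 606 CPM (facial injury), with 371 and 551 CPM in the controls. With 1 library per condition these differences have no replicate check.

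Of 57 other genes of the GDNF pathway, 49 could be tested after IOT, and 5 rose and 15 fell in marker-positive nuclei, 40.8% called in either direction against 16.3% of all genes, of which 8.98% rose and 7.30% fell. Their median log2 difference was -0.12, against -0.01 over all genes. The ligands were hardly detected. *Nrtn* (neurturin) was the only one of 5 to be tested (-0.12 ± 0.42, adjusted p = 0.91). Of the other coreceptors, *Gfra4*, which binds persephin, fell by 0.68 ± 0.19 (edgeR, adjusted p = 0.025), from 11.2 to 5.76 CPM at day 2 and 14.2 to 4.91 CPM at day 7. *Sorl1*, a sorting receptor that carries GDNF and GFRα1 into endosomes, fell by 0.92 ± 0.18 (adjusted p = 0.0021), from 155 to 37.7 CPM at day 7 but only from 277 to 257 CPM at day 75.

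Of 22 adaptors tested, 3 rose and 5 fell. *Shc1*, which links phosphorylated RET to the Ras pathway, fell by 0.78 ± 0.12 (adjusted p = 0.00035), and *Dok4* and *Shc3* fell by 0.70 ± 0.17 and 0.62 ± 0.19 (adjusted p = 0.0096 and 0.037). *Irs2*, an adaptor best known from insulin signaling, rose by 0.82 ± 0.13 (adjusted p = 0.00030), and *Grb10* rose by 0.62 ± 0.15 (adjusted p = 0.012). *Shc1* and *Irs2* also passed in the mild injuries, at -0.73 ± 0.18 and 0.73 ± 0.19 (adjusted p = 0.047 and 0.0499). Of 8 inhibitors of receptor signaling, 1 rose and 2 fell. *Lrig1*, which restrains RET and other receptor kinases, rose by 1.28 ± 0.28 (adjusted p = 0.0049), from 5.65 to 29.5 CPM at day 7. *Ptprf*, a phosphatase that can act on RET, fell by 0.65 ± 0.12 (adjusted p = 0.0014). The other that fell was *Cblb*, a ubiquitin ligase, by 0.53 ± 0.10 (adjusted p = 0.0016), which is named after its values were seen. Of 7 kinases downstream, 1 passed, and it fell.

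Of 6 transcription factors tested, 5 fell and none rose. *Runx1*, which in mouse sets the non-peptidergic nociceptor fate and its *Ret* and *Gfra2* expression, fell by 1.20 ± 0.11 (edgeR, adjusted p = 2.7e-06), from 167 to 82.8 CPM at day 2, 229.5 to 67.1 at day 7, 157 to 61.9 at day 21 and 233 to 116 at day 75. It also fell in the mild injuries, by 0.70 ± 0.16 (adjusted p = 0.029). *Runx3*, a factor of proprioceptors, fell by 0.99 ± 0.25 (adjusted p = 0.013), with marker-negative levels between 7.44 and 8.56 CPM, and its difference in the mild injuries was 0.54 ± 0.34 (adjusted p = 0.51). *Etv5*, a target of RET signaling in other tissues, fell by 0.60 ± 0.16 (adjusted p = 0.021). *Runx3* is also a gate gene of the class named after it. The pathway genes were compared without a split by size and without the controls. In the 10x control the nociceptor gene *Scn10a* was at 180 CPM in marker-positive and 574 CPM in marker-negative nuclei. Of the 112 marker-positive nuclei of that control, 94 were large-like. The part of such a difference in neuron make-up in the pathway results was not tested.

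Over the 14 classes and the injured nuclei (15 points, genes of at least 10 CPM), the genes with the pattern most like each receptor were found by Pearson's r of mean log2(CPM + 1). For *Gfra1* they were *Cfap43* (r = 0.82), *Nudt7* (0.82) and *Pip5k1a* (0.79). For *Gfra2* they were *Rpa1* (0.94), *Tbc1d2* (0.88) and *Lypd6b* (0.86), and for *Gfra3* *Trpv1* (0.95), which is itself a gate gene of the *Tac1* class, *Mif* (0.91) and *Dcaf12l1* (0.91). For *Ret* they were *Zfand3* (0.88), *Fam207a* (0.88) and *Psmc1* (0.87). The points share libraries and were the best of 10182 genes, so these values are a description only.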

How the data were processed

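Single-nucleus RNA sequencing of trigeminal ganglia gave 8 tables of raw UMI counts. The authors deposited these counts after alignment to mm10 with introns counted, a filter on genes detected and mitochondrial share, and removal of non-neuronal clusters. Their notes name Cell Ranger 2.1.0, STAR 2.5.3a, bcl2fastq 2.17 and Seurat 2. How doublets were treated is not stated, and no caller was run here. Members, gene lists and tests were chosen with earlier results of these data known, and several markers come from the study itself. A class needed 3 UMIs over at least 2 of its markers and no other class. This scoring, the minimum of 10 nuclei and the scaling of the size genes were set after seeing the tables, and 3423 classed nuclei of all tables and 902 marker-positive nuclei of the injury libraries sat at the minimum of UMIs. Counts were summed per library and state and tested with edgeR (glmQLFTest, TMM factors, filterByExpr, library as a block). DESeq2 was an alternative. SEs are |log2 difference|/√F. Class levels used log2 CPM with 0.5 added, and sign-flip tests were exact and two-sided. In simulated sums for the IOT effect, 51 of 100 genes changed by 1 on the log2 scale and 87 of 100 changed by 2 were recovered. For the interaction of state and size it was 9 and 68 of 100. Pathway genes were named if called after IOT in the same direction in 4 of 4 libraries, at most 12 by size. Libraries stand for pooled ganglia, so p-values measure spread between libraries of different conditions. Poisson and Clopper-Pearson intervals (95%) cover counting error only. Software was edgeR 4.0.16, DESeq2 1.42.0, R 4.3.3, Python 3.11.15 and scipy 1.17.1.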

Additional observations from a re-analysis of the deposited data

Results flagged for a closer look

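In 39 sets of values over 6 or 7 libraries, 4 held a library far from the others by Dixon's rule, which flags about 1 set in 20 by chance. *Gfra1* in the *Htr3a* class was at 227.9 CPM with scratch lesions, and the next library was at 149.5 CPM. *Gfra2* in the *Mrgpra3* class was at 83.4 CPM at IOT day 75, and the next at 40.9 CPM. *Ret* in the *Cadps2* class was at 483.5 CPM with facial injury, and the next at 285.4 CPM. The *Gfra2* share of coreceptor UMIs differed by -28.1 percentage points between marker-positive and marker-negative nuclei at IOT day 7, and by -19.1 points in the next library. The ratio of *Gfra2* in marker-positive to marker-negative nuclei was above 1 in both control tables (1.19 in 10x) and below 1 in the IOT libraries (up to 0.65) and in both mild injury libraries (up to 0.83). This difference between controls and injuries was not tested, and it depended on the gate: some other gates put the 10x control at 0.885 and 0.900, the Drop-seq control at 0.740 or at no *Gfra2* UMI, facial injury at 1.05 and, thinned, IOT day 75 at 1.08.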

How the results depend on the processing

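On the log2 scale and leaving out each library in turn, the IOT effect was 1.63 to 2.12 for *Gfra1*, -0.85 to -0.63 for *Gfra2*, -0.58 to -0.39 for *Gfra3* and 0.16 to 0.29 for *Ret*, with 1542 to 3180 genes called (2583 with all libraries). The mild injury effect was 0.82 to 1.14, -0.83 to -0.35, -0.33 to 0.35 and 0.49 to 0.56, with 21 to 798 genes called (444). The IOT effect minus the mild one was 0.65 to 1.09 for *Gfra1* and -0.43 to 0.040 for *Gfra2*, with 0 to 34 genes called (6, and 875 at an unadjusted p under 0.05). The coreceptor share differences were 26.2 to 30.9 points (*Gfra1*), -20.3 to -17.6 (*Gfra2*) and -11.4 to -8.55 (*Gfra3*), all at an exact permutation p of 0.0625, the smallest for 5 libraries. The small-like *Gfra3* effect was -0.29 to 0.019, the large-like minus small-like difference of *Gfra2* in marker-positive nuclei -0.33 to 0.079, and the interaction called 9 to 145 genes (71).

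Without the library block, *Gfra2* (-0.82) and *Gfra3* (-0.46) after IOT and *Gfra1* (0.98) and *Ret* (0.52) in the mild injuries lost their calls, and 284, 2 and 0 genes were called for IOT, mild injuries and their difference. With 1 or more *Atf3* UMIs, values were -0.20 (*Gfra3*, IOT, call lost), 0.38 (*Ret*, mild), -0.54 (*Gfra2*, mild) and 0.93 (*Gfra1*, difference), with 46 genes called for the difference. With 2 or more *Atf3* UMIs they were -0.48 (*Gfra3*, IOT, call lost), -0.019 (*Ret*, IOT), -1.19 (*Gfra2*, mild) and 0.77 (*Gfra1*, difference), with 1127 (mild) and 145 (difference) genes. With 1 or more *Sema6a* UMIs they were 0.18 (*Ret*, IOT), 0.46 (*Gfra1*, mild), -0.32 (*Gfra3*, mild) and 0.21 (*Ret*, mild), with 257 and 0 genes. With 1 or more UMIs of either they were 0.19, 0.47, -0.28 and 0.21 in that order, with 255 and 0 genes. With 3 or more, *Gfra3* after IOT was -0.47 (call lost), with 775 and 12 genes. Thinned to 1000 UMIs before gating, *Gfra3* was 0.10 (call lost and sign turned) and *Ret* -0.40 after IOT, *Gfra2* -2.05 and *Ret* 0.039 in the mild injuries, and the difference 1.45 for *Gfra1* and 0.57 for *Gfra2*, with 1665, 237 and 27 genes. Without the 5% of nuclei with most UMIs, *Gfra3* was -0.41 (IOT, call lost) and -0.026 (mild). With a gate on both genes, chosen after seeing the data, *Gfra3* after IOT was -0.44 (call lost), *Gfra2* in the mild injuries -0.78 and the *Gfra1* difference 0.95, with 1037 and 88 genes. DESeq2 gave -0.46 for *Gfra3* after IOT (call lost) and called 10 genes for the difference and 132 for the interaction. The cause was not tested.

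The *Gfra3* share difference missed the threshold with 1 or more *Atf3* UMIs (-7.55), thinned (-6.24), without the top 5% (-10.8), without *Cadps2*-gate nuclei, also chosen after seeing the data (-9.89), and over nuclei with 1 coreceptor only (-9.24). Its share of nuclei was -0.87 points at 1500 UMIs. The *Gfra2* interaction was 0.89 with 6 libraries, which called 124 genes, and 1.17 without *Piezo2*. Small-like *Gfra3* was 0.072 with 6 libraries and 0.11 without the top 5%, large-like minus small-like *Ret* in marker-negative nuclei was -0.037 without the top 5% and -0.092 without *Piezo2*, and that of *Gfra2* in marker-positive nuclei was 0.066 without *Piezo2*. *Gfra1* after IOT kept its direction and call in all alternatives run. The comparisons of marker-positive with marker-negative nuclei were paired within library. No pairing of libraries across conditions was possible because each condition is 1 library.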
